A study of Mus musculus with 6 samples.

Results

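The genes described here encode enzymes that place methyl groups on histone lysines and on protein arginines (writers), enzymes that remove them from lysines (erasers), and core subunits and relatives of these enzymes. They were the rows of the gene expression table whose symbols belong to the Kdm, Kmt, Setd, Prdm, Prmt, Nsd, Ehmt, Suv39h, Jmjd and Jarid families or are Ezh1, Ezh2, Eed, Suz12 or Dot1l, with Prdm1 left out. This gave 69 of the 13883 genes in the table, found by their names. The families were picked with earlier results of these data known, so the counts below are a description of the list and no independent test of it. RNA came from CD8 T cells of wild-type mice, taken from spleen and lymph nodes and activated with antibodies against CD3 and CD28. The control cells then spent the night in 20 mM NaCl and the treated cells in 20 mM DAHB. The compound behind the name DAHB is not described further in the labels. Each group had 3 samples of 100000 cells. Both groups thus shared genotype, tissue and activation and differed in the agent. The age of the mice and whether samples of a group came from separate animals or cultures are not given in the sources used here, so the p-values reflect no more than the spread among these samples, which could be technical.

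Histone methylation works through opposing enzymes. SET domain enzymes and Dot1l add methyl groups to defined lysines of histones H3 and H4 with S-adenosylmethionine as donor. JmjC domain demethylases remove them in a reaction that needs oxygen, iron and 2-oxoglutarate, whereas the LSD enzymes Kdm1a and Kdm1b use FAD. Methylation of H3K4, H3K36 and H3K79 is found mainly at active genes, and trimethylation of H3K9, H3K27 and H4K20 mainly at repressed chromatin. In CD8 T cells, Ezh2 and Suv39h1 are known to take part in effector and memory differentiation.

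The libraries held between 31055613 and 56007582 reads in genes, and none of the 69 genes was lost to the filter on low counts. The T cell markers Cd3e, Cd3d, Cd3g, Cd247 and Trac together had a normalised count of 23321 to 23459 with NaCl and 21616 to 22597 with DAHB, and Cd8a and Cd8b1 together 19439 to 20316 and 28379 to 30484. The T cell markers did not move together: Trac and Cd3d were lower by the test described below, Cd3g was higher, and Cd3e and Cd247 did not pass. Some markers of other cells were higher with DAHB: Cd79b, the only one of 5 B cell markers in the table, ran from 118 to 149 with NaCl and from 549 to 623 with DAHB, and Cd4 from 6.24 to 18.8 and from 54.2 to 72.4. The 5 macrophage and monocyte markers summed to 481 to 941 and 846 to 1151, ranges that overlapped. Of these, Lyz2 and Adgre1 were higher by the test described below, and Csf1r, Itgam and Cd14 did not pass it. Eomes (the only one of 3 NK cell markers in the table, also made by CD8 T cells) was at 377 to 410 and 1267 to 1361. A sum of 2 of 3 stromal and endothelial markers was 683 to 727 and 1181 to 1256. The rise in that sum lay in Pecam1 (572.5 to 644 and 1073.5 to 1146), while Col1a1 did not pass. The sum of 2 of 4 dendritic cell markers was lower with DAHB, 324 to 327 against 440 to 523. That fall lay in the more abundant of these genes, while the other was rare and did not pass. Of the B cell markers Cd79a, Ms4a1 and Pax5, of the neutrophil markers S100a8, S100a9 and Ly6g, and of Foxp3 and the globin genes, no row was analysed here. The part of these markers in the changes below was not tested. In bulk RNA, fewer cells of a type and less RNA per cell cannot be told apart.

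With DAHB, 43 of the 69 genes fell, 3 rose and 23 did not pass the test (limma-trend on log2 normalised counts, Benjamini-Hochberg adjusted p under 0.05). The genes that rose were Ezh2, Ezh1 and the demethylase gene Kdm1b. Among all 13804 genes tested, 29.1% fell and 29.4% rose, against 62.3% and 4.35% of the 69. In either direction 58.5% of all genes and 66.7% of the 69 were called. The median log2 fold change was -0.31 over the 69 genes and 0.00 over all genes. Normalised counts are scaled to 1 size factor per library, so that rises and falls are relative to the bulk of genes. Most changes were small: 10 genes fell at least 1.5-fold, 14.5% of the 69 against 6.92% of all genes.

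Abundant genes fell more often than rare ones in this comparison, and the 69 genes were abundant, with a median mean count of 2067 against 667 over all genes. Among genes with a mean count of 2000 or more, 46.8% of all genes and 65.7% of 35 members fell. Between 100 and 2000 the shares were 31.2% of all genes and 62.1% of 29 members, and below 100 they were 6.91% of all genes and 2 of 5 members. Rises took 21%, 32.6% and 32.3% of all genes from the most to the least abundant group, and 1 of 35, 2 of 29 and 0 of 5 members. Each abundance group thus held a larger share of falls among the members than among all genes.

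By class, 17 of 28 lysine methyltransferases and core subunits fell and 2 rose. Of 18 lysine demethylases, 13 fell and 1 rose. All 13 were JmjC enzymes, of which the list held 16. Of 8 arginine methyltransferases 3 fell (37.5%), near the 29.1% of all genes tested. Of 15 other genes, the PRDM family, SET domain enzymes with non-histone substrates and further JmjC proteins, 10 fell. These small counts, and those by role below, are to be read against the shares of all genes tested. Of those 29.1% fell and 29.4% rose, or 46.8% and 21% at a mean count of 2000 or more. The summed normalised count of the demethylases was 54107 ± 1541 (SD, n = 3) with NaCl and 43959 ± 2043 with DAHB, and that of the lysine methyltransferases 102125 ± 4096 and 90990 ± 4756.

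**Figure D1:**
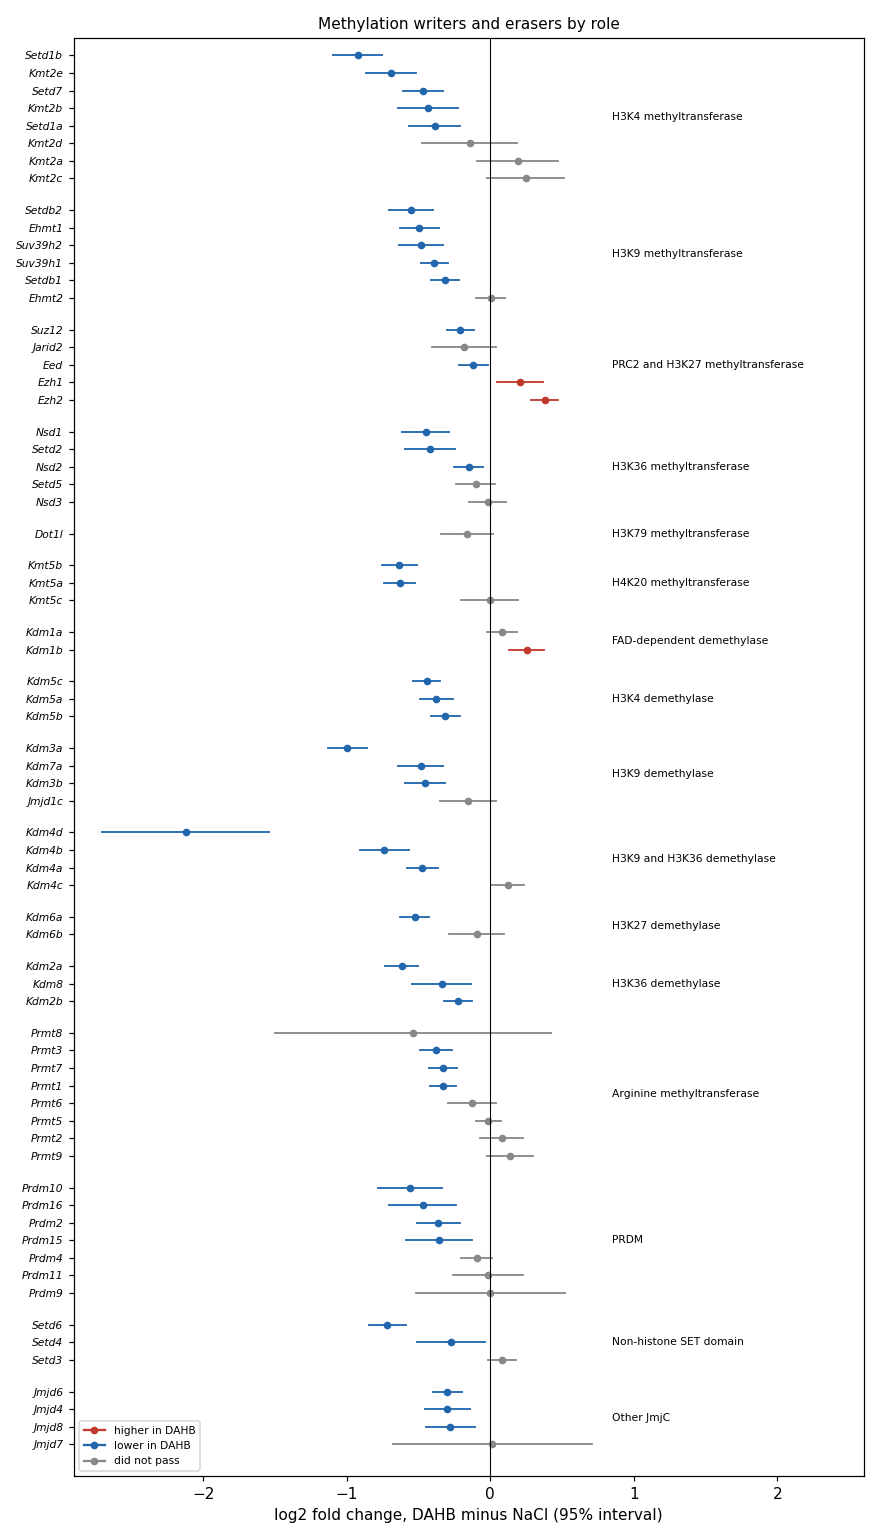
Log2 fold change of 68 of the 69 genes, DAHB minus NaCl, on the horizontal axis, with its 95% interval from limma-trend as a line, grouped by the residue or enzyme type named at the right. Blue marks the 42 of these genes that fell, red the 3 that rose (Ezh2, Ezh1 and Kdm1b) and grey the 23 that did not pass.

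Levels were compared between genes as normalised counts per kb of exon, with the exons of all isoforms merged. Prmt1, which makes most asymmetric dimethylarginine, had the highest level with NaCl at 4259 ± 94.6 per kb (SD, n = 3). It was followed by Suz12 at 2258 ± 61.0, Prmt5 at 2147 ± 29.0, Eed at 1824 ± 10.6 and Ezh2 at 1561 ± 48.7, so that the 3 core subunits of Polycomb repressive complex 2 (PRC2) and the main asymmetric and symmetric arginine methyltransferases headed the list. No 2 neighbours among these 5 genes overlapped between their NaCl libraries. With DAHB, Ezh2 was at 2030 ± 54.4 per kb, beside Prmt5 at 2127 ± 34.4 and Suz12 at 1955 ± 57.5, both of which it overlapped, and above Eed at 1683 ± 88.3. Kdm5c, at 1431 ± 41 and 1053 ± 40.8, was the most abundant demethylase mRNA in both groups. Among the lowest levels, under 20 per kb in both groups, were those of Kdm4d, Prdm11, Prdm9, Jmjd7 and Prmt8.

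**Figure D2:**
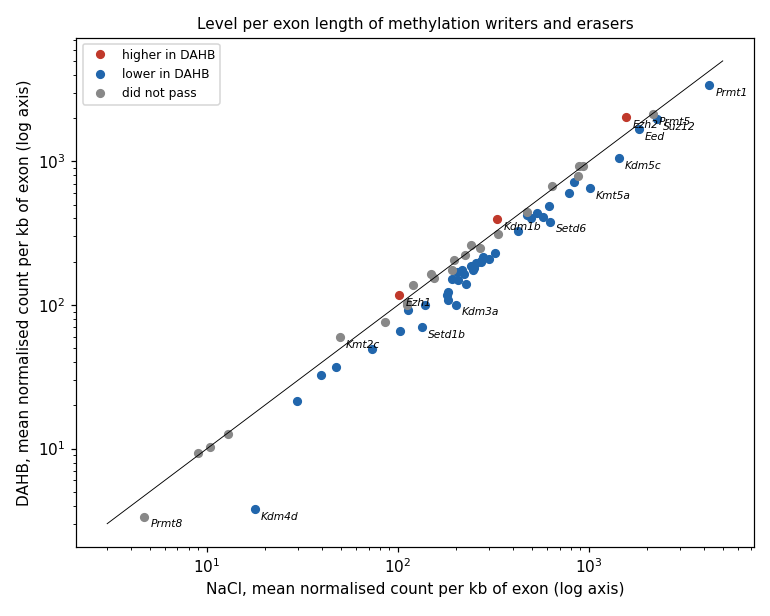
Mean normalised count per kb of exon with NaCl (horizontal, log axis) and with DAHB (vertical, log axis) for 68 of the 69 genes, with the line of equal levels. Most points lie just below the line. Ezh2, Ezh1 and Kdm1b lie above it, as do some genes that did not pass, and Kdm4d lies farthest below it, at 17.8 with NaCl and 3.81 with DAHB.

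PRC2 places methyl groups on H3K27. Its catalytic subunit is Ezh2 or the less active Ezh1, and it needs Suz12 and Eed to work. The subunits did not move together. Promoters of the 3 core genes are shown, from RefSeq on GRCm38.p6, from 250 bases before to 50 bases after the annotated start, in the direction of transcription. Capitals mark matches to an E2F motif, searched as TTTCCCGC, TTTCGCGC, TTTGCCGC and TTTGGCGC on both strands, since E2F factors of the cell cycle are known to act on Ezh2 and Eed. The promoter of Ezh2 is chr6:47594981-47595280 on the minus strand, that of Eed chr7:89980927-89981226 on the minus strand and that of Suz12 chr11:79992856-79993155 on the plus strand.
Ezh2: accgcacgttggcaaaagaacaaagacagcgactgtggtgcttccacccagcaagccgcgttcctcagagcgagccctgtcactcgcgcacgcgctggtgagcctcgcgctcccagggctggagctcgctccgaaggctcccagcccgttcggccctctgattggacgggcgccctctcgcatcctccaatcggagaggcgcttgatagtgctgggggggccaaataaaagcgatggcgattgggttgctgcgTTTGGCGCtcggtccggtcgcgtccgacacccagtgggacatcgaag
Eed: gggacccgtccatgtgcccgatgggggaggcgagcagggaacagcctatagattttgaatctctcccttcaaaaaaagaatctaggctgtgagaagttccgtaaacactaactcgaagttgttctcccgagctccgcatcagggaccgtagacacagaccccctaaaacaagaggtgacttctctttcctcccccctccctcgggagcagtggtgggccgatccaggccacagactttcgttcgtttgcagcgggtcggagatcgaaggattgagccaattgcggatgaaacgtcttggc
Suz12: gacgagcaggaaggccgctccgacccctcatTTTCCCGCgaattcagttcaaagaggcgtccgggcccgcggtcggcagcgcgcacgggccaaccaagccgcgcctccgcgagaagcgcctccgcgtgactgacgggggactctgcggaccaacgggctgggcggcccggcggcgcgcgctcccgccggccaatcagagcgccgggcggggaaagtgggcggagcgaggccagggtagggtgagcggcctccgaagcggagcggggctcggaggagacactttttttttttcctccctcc
One match lay in the Ezh2 window, 1 in the Suz12 window and 0 in the Eed window. Any link between these matches and the changes in the 3 genes was not tested. Among all 32851 promoters, 2.26% held this motif, and of the 56 members with a promoter there 3 did. The core of the hypoxia response element, ACGTG, searched on both strands because Kdm3a and Kdm4b are known targets of hypoxia-inducible factor, was in 19.6% of all promoters and in 12 of the 56 (7 of 32 that fell and 5 of the other 24). For each of the 56, 1 window was searched, that of the start nearest to the outer end of the gene. Of the 3 starts listed for Kdm3a, the window searched held no ACGTG and the others were not examined. Kdm4b was not among the 56.

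Ezh2 (ENSMUSG00000029687, GRCm38 chromosome 6, 47530139 to 47595341, minus strand) had normalised counts of 10795, 10292 and 10186 with NaCl and of 13347, 13975 and 13343 with DAHB. Every DAHB library was above every NaCl library. The gene rose (log2 fold change 0.38, SE 0.043, limma-trend adjusted p = 4.09e-06), the largest rise of the 69 genes. Suz12 (chromosome 11, 79993106 to 80034123) went the other way, from 11171, 11464 and 10861 to 9571, 9439.8 and 9985, again with no overlap. Its log2 fold change of -0.21 (adjusted p = 0.000809) shrank to -0.01 (adjusted p = 0.784) after a correction for GC content and exon length. Eed was at 6971, 6948 and 7028 with NaCl and at 6061, 6699 and 6572 with DAHB, a log2 fold change of -0.12 (adjusted p = 0.0427) that missed the threshold in 10 of the 18 alternatives tried. Among these were the edgeR fit (adjusted p = 0.0576) and the fits without NaCl replicate 1, 2 or 3 (0.104, 0.0781 and 0.117) and without DAHB replicate 1 or 3 (0.0928 and 0.0645).

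The second catalytic subunit gene, Ezh1 (chromosome 11, 101191115 to 101226463), was at 808, 755 and 696 with NaCl and at 847, 830.2 and 927 with DAHB. The groups did not overlap, but the nearest libraries were close. The rise in Ezh1 (log2 fold change 0.21, SE 0.073, adjusted p = 0.0265) was a call lost without NaCl replicate 2 (adjusted p = 0.0537), NaCl replicate 3 (0.138) or DAHB replicate 3 (0.125). Jarid2, which guides PRC2 to chromatin and has no demethylase activity, did not pass (log2 fold change -0.185, 95% interval -0.41 to 0.04). Without DAHB replicate 1, its highest library, Jarid2 was called lower at -0.34 (adjusted p = 0.000472).

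Within each library, the level of Ezh2 per kb relative to that of Suz12 was 0.716, 0.665 and 0.694 with NaCl and 1.03, 1.096 and 0.99 with DAHB. Ezh2 relative to Eed was at 0.856 ± 0.029 (SD, n = 3) and 1.21 ± 0.050. Neither ratio overlapped between the groups. Such ratios do not depend on the size factors, but they were not corrected for GC content or exon length. Ezh2 relative to Ezh1 did overlap, with 15.5 ± 0.754 and 17.5 ± 1.36. An exact two-sided permutation test of 3 against 3 libraries cannot go below p = 0.1, which the first 2 ratios reached (adjusted p = 0.122 over the 11 ratios compared), while the ratio to Ezh1 gave p = 0.2 by the same exact test.

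The demethylases of H3K27 are Kdm6a (UTX) and Kdm6b (JMJD3). Kdm6a (chromosome X, 18162575 to 18279936) fell from 2530, 2552 and 2450 to 1761, 1714 and 1753. The libraries of each group lay within narrow ranges that did not overlap, and the log2 fold change was -0.53 (SE 0.047, adjusted p = 4.23e-07), or -0.32 with GC content and length corrected. Kdm6b was at 2361, 2483 and 2101 with NaCl and at 2559, 2023 and 1961 with DAHB. DAHB replicate 1 was the highest of all 6 libraries and the other two DAHB libraries were the lowest, and the gene did not pass (log2 fold change -0.09, 95% interval -0.28 to 0.10, adjusted p = 0.391). Without DAHB replicate 1 Kdm6b was called lower (log2 fold change -0.21, adjusted p = 0.00676), and the same holds when GC content and length are corrected for (-0.39, adjusted p = 7.58e-05). The ratio of Kdm6a to Kdm6b per kb was 0.903 ± 0.059 with NaCl and 0.672 ± 0.090 with DAHB. Ezh2 relative to both demethylases together was 2.47 ± 0.126 and 3.92 ± 0.405, with no overlap for either ratio. Neither ratio was corrected for GC content and length. Under that correction Kdm6a fell no more than Kdm6b, at -0.32 and -0.39.

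**Figure D3:**
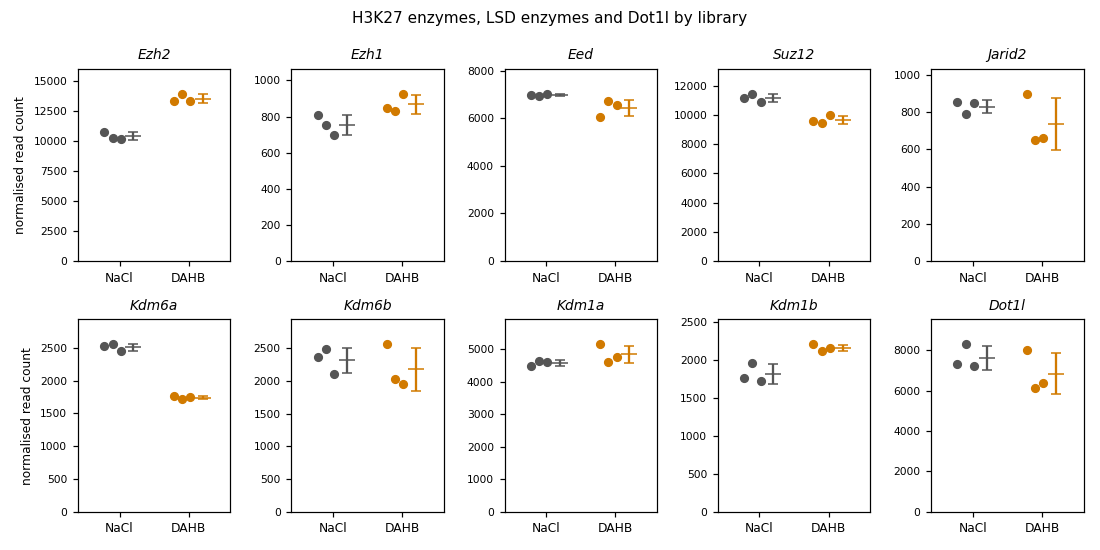
Normalised read count (vertical axes from 0) of the PRC2 genes, the H3K27 demethylases, the LSD demethylases and Dot1l in each NaCl (grey) and DAHB (orange) library, as points in replicate order, with the mean ± SD of 3 libraries beside them. Ezh2, Ezh1 and Kdm1b are higher with DAHB without overlap, Suz12, Eed and Kdm6a lower, and in Kdm6b, Jarid2 and Dot1l the first DAHB library stands above the other two.

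Of the 8 genes assigned to H3K4 methylation, 5 fell and 0 rose. Setd1b (chromosome 5, 123142193 to 123168629), a catalytic subunit of a COMPASS complex that trimethylates H3K4 at promoters, had counts of 1581, 1729 and 1499 with NaCl and of 930, 755 and 853 with DAHB. Its mean was 47.2% lower with DAHB, without overlap, with log2 fold change -0.92 (SE 0.078, adjusted p = 2.33e-07). Its paralog Setd1a fell less, from 1745 ± 154 to 1337 ± 161 (log2 fold change -0.39, or -0.597 with GC content and length corrected), and the ratio of Setd1b to Setd1a per kb was 0.518 ± 0.008 and 0.357 ± 0.008, with no overlap. In GENCODE M21, 51.9% of the exon bases of Setd1a are shared with Gm49388 on the same strand, so its counts are uncertain. Kmt2e, an MLL family member without established methyltransferase activity, fell from 2364 ± 171 to 1469 ± 188 (log2 fold change -0.69), and Setd7, a monomethyltransferase of H3K4 and of non-histone proteins, from 2691 ± 120.0 to 1948 ± 177 (-0.47).

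Among the H3K4 genes, Kmt2a, Kmt2c and Kmt2d varied most between libraries, with SEs of 0.131, 0.125 and 0.153. Kmt2a (chromosome 9, 44803355 to 44881296), which marks promoters of developmental genes, was at 1870, 2279 and 1800.4 with NaCl and at 2955, 1876 and 2059 with DAHB. The groups overlapped, and DAHB replicate 1 stood well above the rest. Kmt2a did not pass (log2 fold change 0.19, SE 0.131, 95% interval -0.09 to 0.47, adjusted p = 0.229). Without DAHB replicate 1 its log2 fold change was -0.005, and without DAHB replicate 2 it was called higher at 0.32 (adjusted p = 0.0269), as under the GC and length correction (0.25, adjusted p = 0.0329). Kmt2c and Kmt2d, which monomethylate H3K4 at enhancers, did not pass at log2 fold changes of 0.25 (95% interval -0.02 to 0.52) and -0.14 (-0.47 to 0.18). Kmt2d was called lower without DAHB replicate 1 (-0.35, adjusted p = 0.0099) and under that correction (-0.39, adjusted p = 0.00322), and without DAHB replicate 2 it was at 0.056. Kmt2c was called higher without DAHB replicate 2 (0.41, adjusted p = 0.00223) and under the correction (0.34, adjusted p = 0.00413). Kmt2b fell from 2608 ± 125 to 1952 ± 375 (log2 fold change -0.43, adjusted p = 0.0016), and its value was -0.70 under the same correction.

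Of 6 H3K9 methyltransferase genes, 5 fell. Suv39h1 (chromosome X), which trimethylates H3K9 in constitutive heterochromatin, was at 4135, 4115 and 4130.4 with NaCl and at 3077, 3114 and 3255 with DAHB. This was a fall of 23.7% without overlap (log2 fold change -0.39, SE 0.044, adjusted p = 3.77e-06). Suv39h2, the second enzyme of this kind, fell from 1083 ± 24.9 to 776 ± 70.3 (-0.48, or -0.32 with GC content and length corrected). The ratio of Suv39h1 to Suv39h2 per kb overlapped between the groups, at 3.19 ± 0.074 and 3.41 ± 0.295 (exact permutation test p = 0.4). Setdb1, which is recruited with Trim28 to silence retroelements, fell from 3407 ± 115 to 2739.7 ± 40.9 (-0.31) and Setdb2 from 736 ± 37.3 to 501 ± 11.2 (-0.55). The partners Ehmt1 (GLP) and Ehmt2 (G9a), which act as a heterodimer on H3K9 mono- and dimethylation, differed. Ehmt1 fell from 2609 ± 106 to 1855 ± 167 (-0.49, adjusted p = 1.23e-05), while Ehmt2 was at 5087 ± 95.4 and 5102 ± 261 (log2 fold change 0.00, 95% interval -0.10 to 0.10, adjusted p = 0.962). With GC content and length corrected, Ehmt2 was called lower too (-0.33, adjusted p = 9.78e-07).

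Of 5 genes linked to H3K36 methylation, 3 fell. Setd2, the only known enzyme for trimethylation of H3K36 behind RNA polymerase, was at 2311, 2624 and 2158 with NaCl and at 1999, 1604 and 1704 with DAHB. The groups did not overlap, and the log2 fold change was -0.42 (SE 0.082, adjusted p = 0.000551), or -0.24 with GC content and length corrected. Of the NSD enzymes, which make the lower methylation states, Nsd1 fell from 4724 ± 453 to 3459.7 ± 368 (-0.45). Nsd2 fell from 7931 ± 414 to 7142 ± 108 (-0.15, adjusted p = 0.0125). Quantile normalisation ended that call on Nsd2 (adjusted p = 0.172), as did leaving out NaCl replicate 1 (0.0531) or 2 (0.0671), and its sign turned when GC content and length were corrected for (0.08, adjusted p = 0.0896). Nsd3 at 3690.3 ± 144 and 3653 ± 319 and Setd5 at 4918 ± 323 and 4588 ± 406 did not pass. Setd5 was called lower without DAHB replicate 1 (-0.17, adjusted p = 0.00686).

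Dot1l, the H3K79 methyltransferase, was at 7344, 8299 and 7225 with NaCl and at 8030.2, 6161 and 6366 with DAHB. The groups overlapped because of DAHB replicate 1, and the gene did not pass (log2 fold change -0.16, 95% interval -0.34 to 0.02, adjusted p = 0.114). Without that library it was called lower (-0.28, adjusted p = 0.0002), and likewise with GC content and length corrected (-0.38, adjusted p = 1.81e-05).

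Of the 3 H4K20 methyltransferase genes, Kmt5a and Kmt5b fell. Kmt5a (chromosome 5, 124439930 to 124462308), which monomethylates H4K20 and is regulated with the cell cycle, went from 5448, 5377 and 5157 to 3621, 3258 and 3442. The lowest NaCl library exceeded the highest DAHB library by a wide margin, and the log2 fold change was -0.63 (SE 0.049, adjusted p = 1.04e-07). Kmt5b, which adds the second and the third methyl group, fell from 1502 ± 62.1 to 967 ± 19.4 (-0.63, adjusted p = 3.87e-07). Its paralog Kmt5c was at 618 ± 60.4 and 617 ± 67.4 (log2 fold change -0.00, 95% interval -0.20 to 0.20). With GC content and length corrected, Kmt5c was called lower (-0.34, adjusted p = 0.00153). The ratio of Kmt5b to Kmt5c per kb was 0.664 ± 0.083 and 0.428 ± 0.040, without overlap.

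Among the demethylases, the largest fall with a mean count of at least 100 was in Kdm3a (chromosome 6, 71588972 to 71632990), which removes mono- and dimethyl groups from H3K9. Its counts were 1727, 1583 and 1631 with NaCl and 877, 832 and 769 with DAHB. The DAHB mean was 49.8% lower, with no overlap (log2 fold change -0.995, SE 0.064, adjusted p = 1.6e-08). Its relative Kdm3b fell from 2894 ± 178 to 2115 ± 182 (-0.45) and Kdm7a, a demethylase of H3K9 and H3K27, from 1397 ± 95.3 to 999 ± 90.9 (-0.485). The fall in Kdm7a was -0.24 with GC content and length corrected. Jmjd1c did not pass (-0.16, 95% interval -0.35 to 0.04) but was called lower without DAHB replicate 1 (-0.27, adjusted p = 0.00415).

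Enzymes of the Kdm4 family remove trimethyl groups from H3K9, and some of them also from H3K36. Kdm4b (chromosome 17, 56326062 to 56402870) was at 912, 838 and 918 with NaCl and at 589, 492 and 521 with DAHB. It fell by 39.9% without overlap (log2 fold change -0.74, SE 0.079, adjusted p = 2.34e-06), and Kdm4a fell from 3302 ± 129 to 2381 ± 104 (-0.47). Kdm4c was at 1397 ± 47.9 and 1519 ± 42.6, higher in every DAHB library, but did not pass (log2 fold change 0.12, adjusted p = 0.0674). It passed as higher under equal library totals (adjusted p = 0.0472), quantile normalisation (0.0173), the correction for GC content and length (9.24e-05) and without DAHB replicate 1 (0.0387). The ratio of Kdm4b to Kdm4c per kb was 0.758 ± 0.039 and 0.419 ± 0.050, without overlap. Kdm4d, an intronless relative known mainly from testis, was rare: 53, 41 and 79 reads with NaCl and 9, 11 and 10 with DAHB. Its normalised count fell from 50.9 ± 6.55 to 10.9 ± 0.926 (log2 fold change -2.12, SE 0.271, adjusted p = 1.24e-05).

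All 3 H3K4 demethylases of the Kdm5 family in the table fell. Kdm5c (chromosome X) went from 9971, 10508 and 10044 to 7818, 7276 and 7372. With no overlap, its log2 fold change was -0.44 (SE 0.045, adjusted p = 1.29e-06). Kdm5a fell from 3412 ± 187 to 2629.9 ± 96.1 (-0.375, or -0.17 with GC content and length corrected) and Kdm5b from 3587 ± 145 to 2888 ± 53.8 (-0.31). Of the genes grouped under H3K36 demethylation, Kdm2a fell from 2604 ± 144 to 1697 ± 51.1 (-0.62, adjusted p = 3.17e-07). Kdm2b, which also recruits a variant Polycomb repressive complex 1 to CpG islands, fell from 9104 ± 162 to 7805 ± 339 (-0.22), and Kdm8 from 455 ± 7.64 to 361 ± 43.5 (-0.34).

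Neither gene of the LSD enzymes, which use FAD and not 2-oxoglutarate, was called lower. Kdm1b (LSD2; chromosome 13, 47043499 to 47085279) was at 1768, 1964 and 1727 with NaCl and at 2208, 2126 and 2165 with DAHB. Kdm1b rose without overlap (log2 fold change 0.25, SE 0.056, adjusted p = 0.00146), and by 0.40 with GC content and length corrected. On the other strand, Dek overlaps 9.19% of its exon bases. Kdm1a (LSD1) was at 4472, 4626 and 4616 with NaCl and at 5139, 4616 and 4747 with DAHB. Its groups overlapped and it did not pass (0.08, 95% interval -0.03 to 0.18, adjusted p = 0.179), except under quantile normalisation, where it was called higher (0.18, adjusted p = 0.00552). Kdm1a relative to Kdm3a per kb was 4.42 ± 0.274 with NaCl and 9.30 ± 0.496 with DAHB. This ratio mostly restates the fall in Kdm3a (exact permutation test p = 0.1, the smallest possible, adjusted p = 0.122).

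**Figure D4:**
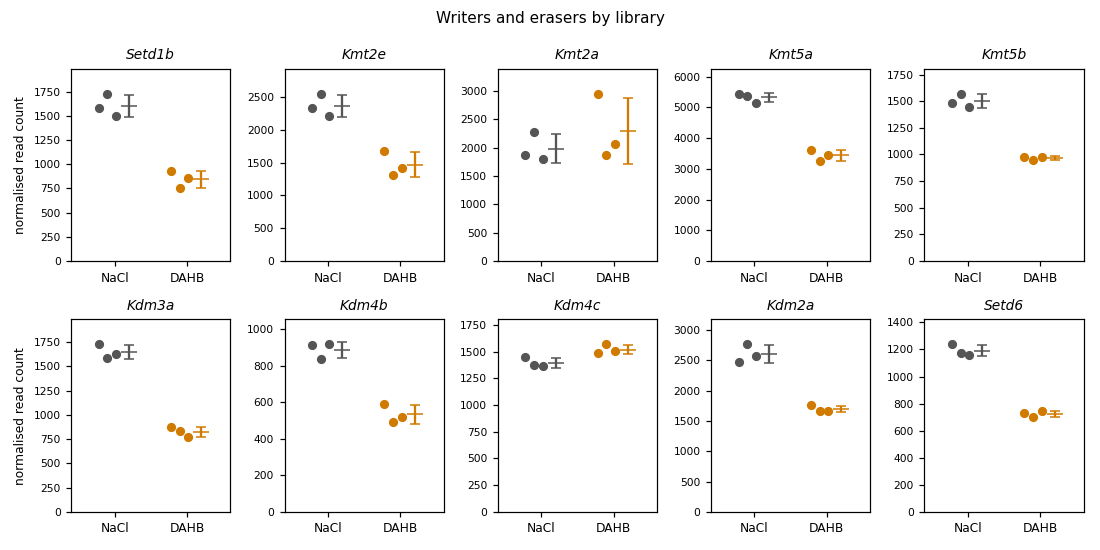
Normalised read count (vertical axes from 0) of 10 writers and erasers in each NaCl (grey) and DAHB (orange) library, with the mean ± SD of 3 libraries beside the points. Setd1b, Kmt2e, Kmt5a, Kmt5b, Kdm3a, Kdm4b, Kdm2a and Setd6 are lower with DAHB without overlap, Kmt2a overlaps, and Kdm4c does not overlap but did not pass.

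Protein arginine methyltransferases differ in the form of methylarginine they make. Prmt1 (chromosome 7, 44975989 to 44986568), the main enzyme of asymmetric dimethylation, was at 14583, 14265 and 14913 with NaCl and at 11640.2, 11779 and 11416 with DAHB. It fell by 20.4% without overlap (log2 fold change -0.33, SE 0.041, adjusted p = 9.37e-06). Prmt5, the main enzyme of symmetric dimethylation, was at 8575, 8366 and 8555 with NaCl and at 8267, 8533 and 8452 with DAHB. These libraries overlapped, and the 95% interval of its log2 fold change ran from -0.10 to 0.07 (adjusted p = 0.791). The ratio of Prmt1 to Prmt5 per kb was 1.98 ± 0.027 and 1.59 ± 0.033, without overlap. Prmt7, a monomethyltransferase, fell from 3779 ± 129 to 3005 ± 72.2 (-0.33), and Prmt3, which acts on ribosomal protein S2, from 2539 ± 91.2 to 1954 ± 91.9 (-0.38, or -0.22 with GC content and length corrected). Prmt2, Prmt6, Prmt8 and Prmt9 did not pass. Prmt9 was called higher without DAHB replicate 1 (0.20, adjusted p = 0.0157) and with GC content and length corrected (0.32, adjusted p = 0.000614), and Prmt6 was called lower without DAHB replicate 2 (-0.20, adjusted p = 0.0433).

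PRDM proteins join a SET-related domain to zinc fingers, and 5 of 8 fell. Prdm2 (RIZ), a putative H3K9 methyltransferase, fell from 2052 ± 154 to 1597 ± 134 (-0.36, adjusted p = 0.000442), Prdm10 from 673 ± 58.9 to 459 ± 67.1 (-0.56) and Prdm16, known for its part in brown fat, from 277 ± 12.02 to 200.04 ± 20.0 (-0.47). Prdm15 fell from 536 ± 51.1 to 419 ± 61.8 (-0.36), a call lost without NaCl replicate 2 (adjusted p = 0.055). Prdm4, Prdm11 and the meiotic H3K4 methyltransferase gene Prdm9, which was at 44.9 ± 12.9 and 44.1 ± 6.09, did not pass. Prdm11 was called lower under quantile normalisation (-0.29, adjusted p = 0.0362).

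Among SET domain enzymes with non-histone substrates, Setd6 (chromosome 8, 95715881 to 95719010), which methylates the NF-kappaB subunit RelA, was at 1237, 1173 and 1159.7 with NaCl and at 729, 701 and 742 with DAHB. This was a fall of 39.2% without overlap (log2 fold change -0.72, SE 0.060, adjusted p = 2.29e-07). Setd3, the actin histidine methyltransferase, was at 3867 ± 114 and 4095 ± 103. Its libraries did not overlap but it did not pass (0.08, adjusted p = 0.131). It was called higher under quantile normalisation (adjusted p = 0.00279), the correction for GC content and length (0.000542) and without DAHB replicate 1 (0.043). Setd4 was only just called lower (log2 fold change -0.27, adjusted p = 0.0487) and missed the threshold in 13 of 18 alternatives, among them each that left out 1 library (adjusted p 0.0582 to 0.162), while quantile normalisation put it at -0.56 (adjusted p = 0.000654). Of the other JmjC proteins, Jmjd6, a lysyl hydroxylase of splicing factors, fell from 2507 ± 39.4 to 2036.5 ± 56.9 (-0.30). Jmjd4, which hydroxylates the translation release factor eRF1, fell from 800.02 ± 14.4 to 652 ± 57.8 (-0.30). Jmjd8, a protein of the endoplasmic reticulum lumen, fell from 564 ± 38.6 to 465 ± 24.1 (-0.28), a call that missed the threshold without NaCl replicate 1 (adjusted p = 0.0507) and whose value was -0.45 with GC content and length corrected. Exons of Jmjd8 overlap those of Stub1 on the other strand over 39.3% of their bases, and those of Jmjd7, which did not pass at 13 to 28 reads per library, are shared over 66.7% with the read-through gene Gm28042, so both counts are uncertain.

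The DAHB values lay wholly above or below the NaCl values for 49 of the 69 genes, or 71.01%, against 63.4% of all genes tested. Of the 23 that did not pass, 3 had no overlap, namely Kdm4c, Setd3 and Prdm4. Of the 43 that fell, 37 were called lower in all 18 alternatives that could be run for them, and Ezh2 and Kdm1b were called higher in all 18. The 3 members on the X chromosome, Kdm5c, Kdm6a and Suv39h1, all fell, whereas 34% of 447 X-linked genes tested fell and 25.7% rose. Antisense genes overlap the exons of Suv39h1 over 14.6%, of Prmt6 over 23.5% and of Kdm3b over 24.6% of their bases, so these counts are uncertain.

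The spread within groups followed gene length. Members with exons of 8 kb or more numbered 30. Of these, 26 had their highest NaCl value in replicate 2 and 28 their highest DAHB value in replicate 1. Of the 39 shorter members, 19 and 16 did. Of the 30 long members 21 fell and 0 rose, against 34.8% and 26.2% of all 2291 genes tested of that length. Of the 39 shorter ones 22 fell and 3 rose, against 28% and 30% of all 11485 shorter genes. With both of these libraries left out, a choice made after seeing the data, 47 members were called lower and 5 higher.

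**Figure D5:**
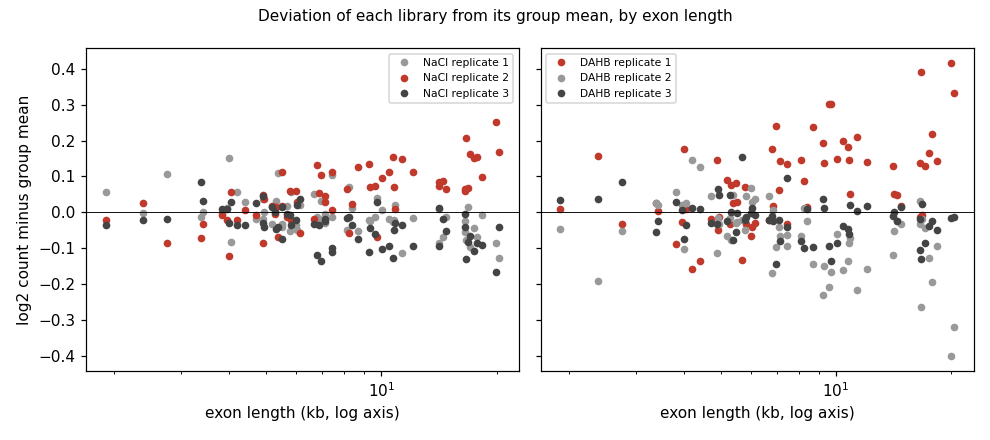
Log2 normalised count of each library minus the mean of its group (vertical axis) against exon length in kb (horizontal, log axis) for the 64 members with a group mean of at least 100, NaCl at the left and DAHB at the right. Values of NaCl replicate 2 and DAHB replicate 1, in red, climb above the other libraries as exon length grows.

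The wider machinery was described with 91 partner and related genes, of which 84 were in the table. Of these 45.2% fell (38) and 17.9% rose (15), against 29.1% and 29.4% of all genes tested, and their median log2 fold change was -0.13. The partner genes were not split by abundance. Many of them were abundant, and of all genes with a mean count of 2000 or more, 46.8% fell and 21% rose. The lists are small, and a count such as 4 of 8 or 5 of 10 is to be read against those shares of all genes. Of 12 COMPASS partners, which carry the H3K4 methyltransferases, 8 fell and 0 rose. Wdr82, the subunit that ties Setd1a and Setd1b to RNA polymerase II, fell from 6270.4 ± 136 to 4223 ± 111 (log2 fold change -0.57, adjusted p = 7.75e-08), the core subunit gene Ash2l from 3858 ± 53.4 to 2758 ± 61.6 (-0.48, or -0.30 with GC content and length corrected) and Hcfc1 from 10814 ± 715 to 7881 ± 578 (-0.46). Of 8 PRC2 accessory subunits 4 fell, among them Phf19, which binds H3K36 methylation, from 1190.1 ± 36.3 to 619 ± 7.33 (-0.94), Epop from 3878 ± 23.1 to 2579 ± 200 (-0.59) and the histone chaperone gene Rbbp7 from 16674 ± 193 to 13389 ± 387 (-0.32). Under that correction Epop was at -0.99 and Rbbp7 at -0.20.

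Of 18 subunits of Polycomb repressive complex 1, which reads H3K27 methylation, 7 fell (38.9%) and 6 rose (33.3%), shares near the 29.1% and 29.4% of all genes tested. Bmi1 fell from 3059 ± 59.7 to 1495 ± 69.6 (-1.03, adjusted p = 1.29e-09), while Pcgf1, its counterpart in a variant complex, rose from 344 ± 33.9 to 547 ± 17.4 (0.67) and the chromobox reader gene Cbx8 from 160.5 ± 31.1 to 250.05 ± 19.4 (0.65, or 0.37 under quantile normalisation). Of 10 H3K9 partners and readers 5 fell, including Zfp644, a partner of the Ehmt1 and Ehmt2 complex, from 1023 ± 73.0 to 538 ± 19.7 (-0.92), the silencing factor Morc2a (-0.53) and the heterochromatin protein gene Cbx5 (-0.44, or -0.23 with GC content and length corrected). Among 9 LSD1 complex partners 3 rose and 3 fell. Rcor2, a CoREST scaffold, rose from 272 ± 36.3 to 1057 ± 103 (1.96, adjusted p = 2.04e-09), Zmym3 rose by 0.31, and Rcor3 fell by 0.32 on the log2 scale, a call that missed the threshold in 4 of 18 alternatives, among them the GC and length correction (-0.12, adjusted p = 0.376) and the fits without NaCl replicate 1 or 3 (0.068 and 0.0942) or DAHB replicate 2 (0.146). Quantile normalisation put Rcor3 at -0.57.

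Of 6 genes linked to Dot1l and transcription elongation, 2 fell and 2 rose: Aff4 and Mllt10 fell, at log2 fold changes of -0.74 and -0.61, and Mllt3 (AF9) rose by 0.39 and Mllt1 (ENL) by 0.27. With GC content and length corrected, Mllt3 was at 0.62, and Mllt1 lost its call and turned to -0.06 (adjusted p = 0.271). Of 4 Prmt5 partners, only Wdr77, the obligate MEP50 subunit, passed, with a fall from 2347 ± 50.3 to 1954 ± 112 (-0.265, or -0.16 with GC content and length corrected and -0.17 under quantile normalisation). Among 12 other methylation enzymes 5 fell and 3 rose; Smyd2 and Riox1 fell, at log2 fold changes of -0.398 and -0.39, and Riox2, a JmjC ribosomal oxygenase, rose by 0.57. Riox1 was at -0.76 with GC content and length corrected. Of 5 genes listed around the methyl donor 3 fell and 1 rose. Mat2a was called lower (log2 fold change -0.12, adjusted p = 0.0361), a call that held in 9 of 18 alternatives. With GC content and length corrected, Mat2a was at 0.048 (adjusted p = 0.296). Ahcyl2 and Ahcyl1 fell, at log2 fold changes of -0.36 and -0.31, and Ahcy, which clears S-adenosylhomocysteine, rose by 0.12 (adjusted p = 0.0407), a call that missed the threshold in 6 of 18 alternatives, among them all that left out 1 library other than DAHB replicate 1 (adjusted p 0.0709 to 0.16).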

How the data were processed

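Total RNA of 6 samples was sequenced. The submitters' processing notes name Trimmomatic (0.36), STAR (2.5.2b), featureCounts (1.5.2), DESeq2 and the build GRCm38. The annotation release, strand setting and filter on rare genes are not given in the sources used here, so reads of overlapping or antisense genes cannot be told apart. The values the authors deposited are a normalised signal: whole reads of a gene over the size factor of its library. All values (100%) were whole multiples of 1 read within 0.001, which gave back the reads, 31055613 to 56007582 per library. Pairs of libraries of a group differed by more than counting noise, at a chi-square of 4.64 to 17.5 per degree of freedom.

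Of 13883 genes, 13804 reached a normalised count of 10 in 3 libraries. They were tested as log2(count + 1) with limma-trend (limma 3.58.1 under R 4.3.3), two-sided, and p-values were adjusted over all of them by Benjamini-Hochberg. Adjusted p-values are from this fit unless another is named. Log2 fold changes understate those of rare genes. On the recovered reads, edgeR 4.0.16 (quasi-likelihood) called 4126 genes higher and 3958 lower and DESeq2 1.42.0 called 3842 and 3828, against 4052 and 4019. The limma step was also run on simulated counts in which few genes changed. In these data 58.5% of genes were called, so that run gives no error rate for them. Coordinates and merged exon lengths are those of GENCODE M21 (GRCm38), and promoters those of RefSeq (GRCm38.p6), where 56 of the 69 genes matched. Within-library ratios were compared by exact permutation tests.

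The members, role groups and partner lists were chosen with earlier results of these data known. Named with full values were up to 4 genes per role, by the largest change among called genes whose higher group reached a mean of 100, and 15 set genes (Ezh1, Ezh2, Eed, Suz12, Kmt2a, Dot1l, Setd2, Suv39h1, Kdm6a, Kdm6b, Kdm5a, Kdm5b, Kdm1a, Prmt1 and Prmt5). Each partner list gave up to 3. Some items, among the members and the cell type markers, are not reported here by name or in the figures, but stay in the counts. Others account for the remaining members or were chosen after their values were seen. The 18 alternatives comprised other pseudocounts (0.5 and 10), no filter, a minimum of 50, quantile normalisation, equal totals, a robust prior, a replicate block, edgeR, DESeq2, a correction of each library for GC content and exon length (13776 genes), each library left out and, added after seeing the data, NaCl replicate 2 and DAHB replicate 1 left out together.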

Additional observations from a re-analysis of the deposited data

How the results depend on the processing

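Over the 69 genes and 18 alternatives, 4 genes being too rare for the minimum of 50, 1135 single-gene results kept direction and side of the threshold, 33 lost their call, 35 gained one and 37 changed sign, 2 of the sign changes being among the calls lost or gained. The number of members that fell was 39 to 47 under every alternative run. The number that rose was 3 and less certain: 8 after the GC and length correction, 6 under quantile normalisation, 5 without both libraries high in long genes, and 2 to 6 with 1 library left out. By class, the lysine methyltransferases that rose numbered 4 after the GC and length correction and 1 to 4 with 1 library left out. For demethylases the number was 2 after that correction, 2 under equal totals, 3 under quantile normalisation and 1 to 2 with 1 library left out. For arginine methyltransferases and for the other members it was 0 to 1 with 1 library left out, and 1 after the correction or without both libraries; it was also 1 for the other members under quantile normalisation. The median log2 fold change of members lay between -0.344 and -0.285 in all of them. That of all genes lay between -0.066, under quantile normalisation, and 0.031, after the correction.

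The sign changed in 13 genes, of which Nsd2 was called lower in the reported fit and the others were not called. With GC content and length corrected, log2 fold changes were 0.08 for Nsd2, 0.045 for Jmjd1c, 0.09 for Nsd3, -0.115 for Prmt2, -0.213 for Jmjd7 and -0.33 for Ehmt2. Under quantile normalisation they were 0.087 for Nsd3, 0.05 for Prmt5, 0.00 for Kdm6b, -0.46 for Jmjd7 and -0.51 for Prdm9. Kmt5c was at 0.004 by edgeR and at 0.004 under equal totals. Prdm9 was at -0.016 by DESeq2, -0.005 by edgeR and -0.002 with a pseudocount of 10. Without both libraries Prdm11 was at 0.001, Jmjd7 at -0.151 and Ehmt2 at -0.03. With 1 library left out, log2 fold changes ran from -0.08 to 0.065 for Prdm11, -0.197 to 0.155 for Jmjd7, -0.091 to 0.073 for Kmt5c, -0.086 to 0.035 for Nsd3, -0.005 to 0.323 for Kmt2a, -0.352 to 0.056 for Kmt2d, -0.132 to 0.221 for Prdm9 and -0.038 to 0.03 for Ehmt2. The cause of these shifts was not tested.

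Deviations from the group mean of same-numbered libraries correlated at -0.0488, -0.154 and 0.0405, and those of other pairs at -0.0667 to 0.113. Such correlations cannot tell whether samples with the same number shared an animal or a culture. With the replicate number as a block 41 members were lower and 3 higher, Eed and Setd4 losing their calls (adjusted p = 0.0731 and 0.0771). Low reads, fewer than 100 in every library, limit Kdm4d, Jmjd7, Prdm9 and Prmt8.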
